A study of Mus musculus with 8 samples.

Results

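The 10 genes described here encode the enzymes that turn arachidonic acid into prostaglandins and leukotrienes, with 1 partner protein and 1 enzyme of prostaglandin breakdown. They are Ptgs1, Ptgs2, Ptges, Hpgds, Hpgd, Alox5, Alox5ap, Alox15, Lta4h and Ltc4s. They were chosen by gene name for their known function, with earlier results of these data known. All 10 were among the 26939 genes of the joined count tables. RNA was sequenced from tumor-associated macrophages (TAMs) of mice bearing EO771, a mouse breast cancer line grown orthotopically in the mammary fat pad.

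There were 4 groups of 2 libraries, all from tumors taken on day 21. WT control and Unc93b1 3d/3d control TAMs came from mice that did not receive the antibody to MARCO. WT αMARCO and Unc93b1 3d/3d αMARCO TAMs came from mice given 100 µg of the rat IgG1 antibody ED31 intravenously on days 3, 6, 9 and 12. MARCO is a scavenger receptor of macrophages, and Unc93b1 3d/3d mice carry a mutated UNC93B1, the protein that brings endosomal Toll-like receptors to the endosome. The labels call the control samples untreated, their library names say PBS and the study's methods name an isotype IgG1, so what these mice received is not settled here. The study's methods describe female adult mice and a sort of live cells positive for CD45, CD11b and F4/80 and negative for Gr-1. Each control library pooled 3 mice, and pooling of the αMARCO libraries is not stated in the sources used here. In 1 label the genotype of Unc93b1 3d/3d control replicate 2 is spelled 3d/4d, while its title says 3d/3d.

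Libraries held 15182618 to 26411936 counted reads. The macrophage markers Csf1r and Cd68 were high in every library, at 903 to 1134 and 750 to 1051 CPM (counts scaled to library size, corrected by TMM, edgeR's adjustment for library composition). The 2 Unc93b1 3d/3d αMARCO libraries stood apart from each other: the standard deviation of their log2 difference over genes was 1.01, against 0.436 to 0.579 in the other groups. Results that rest on them are given with and without each. Because the 3d allele is a mutated protein, the Unc93b1 mRNA level does not check the genotype labels. It was 850 and 965 CPM in WT control, 746 and 718 in WT αMARCO, and 539 to 659 CPM over the 4 Unc93b1 3d/3d libraries.

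Phospholipases free arachidonic acid from membranes, and the released fatty acid then enters one of several branches. Cyclooxygenases make prostaglandin H, which terminal synthases turn into prostaglandin E2, prostaglandin D2, prostacyclin or thromboxane. Alternatively, 5-lipoxygenase and its partner protein make leukotriene A4, from which leukotriene B4, a neutrophil attractant, and the cysteinyl leukotrienes are formed. Macrophages use both branches, and prostaglandin E2 made in tumors is known to dampen immune responses.

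Ptgs1 and Ptges were the members called as lower with αMARCO in WT TAMs, by the rule given below. The sequences in front of both are therefore shown, with that of Ptgs2, the second cyclooxygenase, beside them. These are the 250 bases before the RefSeq transcript start (GRCm38.p6), 5′ to 3′ on the gene's strand, and capitals mark matches to the motifs named after them.
Ptgs1, chr2:36230176-36230425, plus strand: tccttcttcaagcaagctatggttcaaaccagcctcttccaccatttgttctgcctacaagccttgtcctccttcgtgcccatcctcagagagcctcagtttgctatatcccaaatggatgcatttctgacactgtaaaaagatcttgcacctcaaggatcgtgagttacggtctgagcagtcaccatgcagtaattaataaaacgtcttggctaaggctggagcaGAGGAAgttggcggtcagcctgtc
Ptges, chr2:30903298-30903547, minus strand: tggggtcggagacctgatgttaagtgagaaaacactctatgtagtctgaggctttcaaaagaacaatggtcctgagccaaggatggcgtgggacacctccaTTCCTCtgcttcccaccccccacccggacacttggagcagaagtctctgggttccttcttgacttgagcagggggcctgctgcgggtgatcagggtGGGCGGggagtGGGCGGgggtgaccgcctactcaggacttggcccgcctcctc
Ptgs2, chr1:150099781-150100030, plus strand: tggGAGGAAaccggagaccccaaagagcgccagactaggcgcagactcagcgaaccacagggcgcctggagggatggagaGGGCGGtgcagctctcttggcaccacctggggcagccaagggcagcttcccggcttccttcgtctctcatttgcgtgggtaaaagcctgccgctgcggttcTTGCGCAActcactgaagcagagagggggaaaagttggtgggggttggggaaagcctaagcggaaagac

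Promoters of 8 of the 10 members were matched by symbol, and Alox5ap and Alox15 were not. Both strands were searched for 8 motifs: the TATA box TATAAA, the GC box GGGCGG, the cAMP response element core ACGTCA, the C/EBP site TTGCNNAA, the AP-1 site TGANTCA, the E-box CACGTG, the ETS core GAGGAA and the NF-kB consensus. Ptgs1 held 1 match, an ETS core 24 to 19 bases before the start. Ptges held an ETS core on the other strand at 149 to 144 bases and GC boxes at 53 to 48 and at 42 to 37 bases before the start. Ptgs2 held an ETS core, a GC box and a C/EBP site, the last at 69 to 62 bases before the start. The ETS core was searched only as GAGGAA, so shorter GGAA matches were not counted. In that form it was found in 7 of the 8 matched members and in 23.3% of 32851 promoters. The GC box was found in 4 of 8 and in 32.7%. The C/EBP site was found in 2 of 8 and in 9.56%. The TATA box, cAMP response element core, AP-1 site, E-box and NF-kB consensus were in none of these 8 windows. They were in 12.4%, 6.47%, 6.75%, 6.02% and 3.9% of all promoters. The start used for Ptges lies inside the gene as the count tables place it (chr2:30889471-30929863), since those tables include a longer transcript. Whether any of these letters is a bound site was not measured.

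Per kilobase of transcript, the leukotriene partner protein and the inducible cyclooxygenase were the highest members in TAMs. Alox5ap, which presents arachidonic acid to 5-lipoxygenase, averaged 135 CPM per kb over the 8 libraries, and Ptgs2, the inducible cyclooxygenase, 83.7. Hpgds, which makes prostaglandin D2, followed at 27.7 CPM per kb and Lta4h, which makes leukotriene B4, at 9.91. Ptges, the inducible prostaglandin E2 synthase, and Ptgs1, the constitutive cyclooxygenase, were close to each other at 5.79 and 5.22 CPM per kb. Their library ranges of 3.12 to 9.08 and 2.35 to 7.27 overlapped. Alox5, the 5-lipoxygenase itself, stood at 2.48 CPM per kb. Hpgd, which inactivates prostaglandins, Ltc4s, which makes leukotriene C4, and Alox15, the 12/15-lipoxygenase, were lowest at 1.56, 1.27 and 0.946 CPM per kb. The ranges of these lowest 3 overlapped as well. Counts were as low as 12 reads for Ltc4s and 23 for Alox15 in a library, against 2214 or more for Hpgds, Alox5ap and Ptgs2. All 10 members passed the filter on low counts in each comparison.

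**Figure D1:**
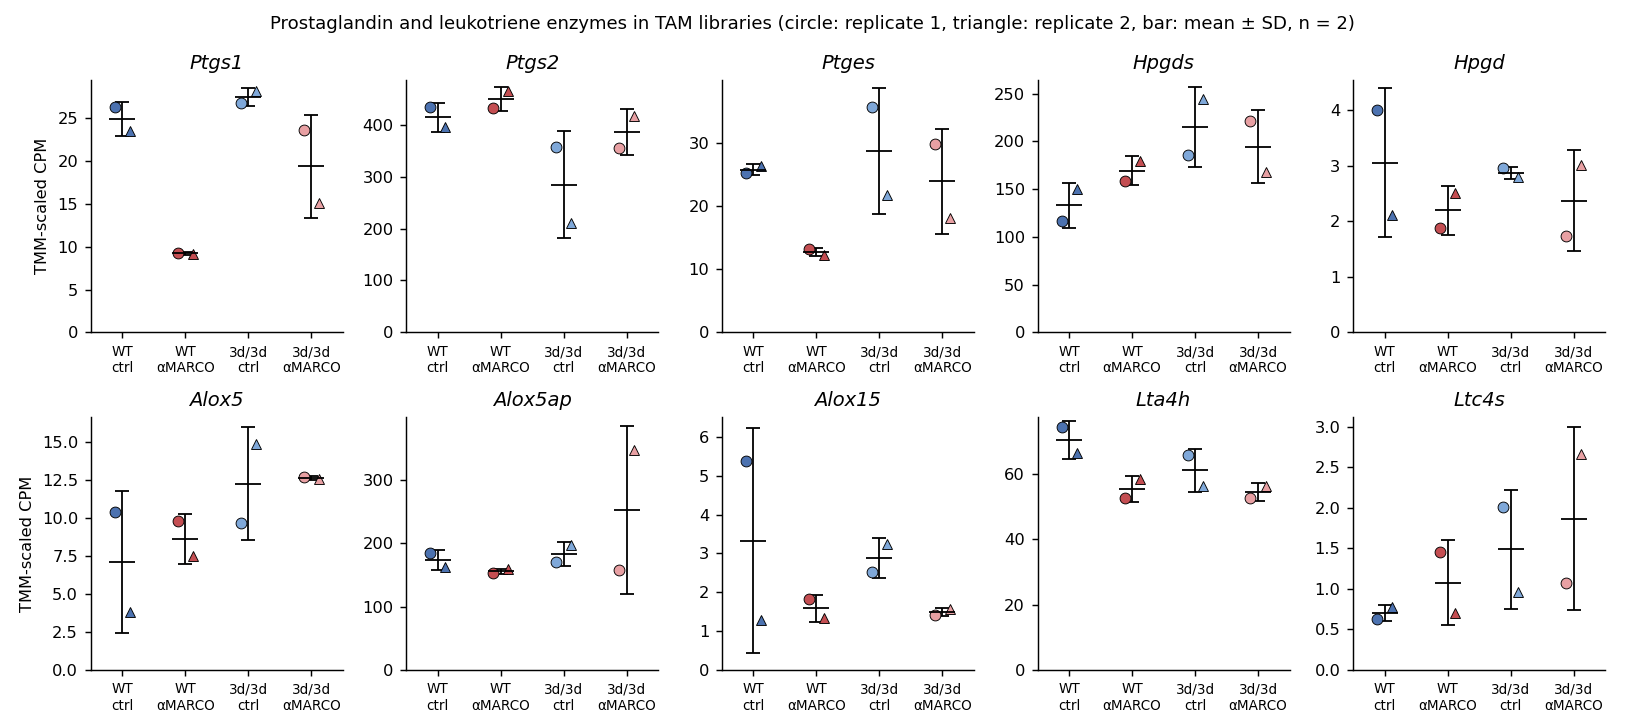
CPM (TMM-scaled, linear axis from 0) of each member in the 8 TAM libraries; circles are replicate 1, triangles replicate 2, and bars the mean ± SD (n = 2). Ptgs1 and Ptges are lower in both WT αMARCO libraries than in every other library, and Hpgds is lower in both WT control libraries than in both Unc93b1 3d/3d control libraries.

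The first comparison asked which members depended on endosomal Toll-like receptor signaling in TAMs without αMARCO. Hpgds was 1.63-fold lower in WT than in Unc93b1 3d/3d control TAMs. It was the 1 member called of 10, where 13.0% of 15600 tested genes were called in either direction and 6.40% as lower in WT. A gene was called where edgeR's quasi-likelihood test gave it a p of 0.05 or less after Benjamini-Hochberg adjustment over the tested genes and its log2 fold change reached 0.5 in either direction. A share of 1 in 10 is near that background. No member of the leukotriene branch and neither cyclooxygenase was called.

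Hpgds measured 117 and 150 CPM in WT control and 185 and 245 CPM in Unc93b1 3d/3d control. The groups did not overlap, although replicates within each group also lay apart. The log2 fold change was -0.71 ± 0.17 (SE, adjusted p = 0.0265). Without Unc93b1 3d/3d control replicate 2, the library with conflicting genotype labels, it was -0.50 with an adjusted p of 0.0645, and no member was called. Hpgds transcripts are also known from mast cells, megakaryocytes and some T cells. Of the 8 mast cell and basophil markers, 2 were higher without overlap in Unc93b1 3d/3d control TAMs and 1 was lower. The list summed to 8.25 to 19.5 CPM in WT control and 6.24 to 9.48 CPM in Unc93b1 3d/3d control, where Fcer1a and Ms4a2 had at most 0.10 CPM. Platelet and megakaryocyte markers summed to 241 and 243 CPM in WT control and 631 and 820 CPM in Unc93b1 3d/3d control. Almost all of that sum was Pf4, which macrophages also make, at 227 and 234 CPM against 584 and 759 CPM. Of the 6 markers, Pf4 and Ppbp were higher without overlap in Unc93b1 3d/3d control. Itga2b stood at 0.942 to 2.37 CPM, and Gp9, Gp1bb and Treml1 at 0 to 0.502 CPM in these 4 libraries. T cell markers went the other way, 6 of 6 higher in WT without overlap, and summed to 63.3 and 71.7 CPM in WT control and 14.3 and 6.95 CPM in Unc93b1 3d/3d control. Higher in WT without overlap were also 5 of 7 conventional dendritic cell markers (627 and 330 CPM against 106 and 68.7 CPM), 4 of 5 NK cell markers and 5 of 6 nonclassical monocyte markers (1328 and 1288 CPM against 488 and 358 CPM). Macrophages also make Nr4a1 and Fabp4, which belong to the last of these lists. The part of these cell types in the Hpgds difference was not tested. In these bulk samples fewer cells of a type and less RNA per cell cannot be told apart.

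Among the cyclooxygenases, Ptgs1 measured 26.4 and 23.5 CPM in WT control and 26.8 and 28.2 CPM in Unc93b1 3d/3d control (log2 fold change -0.16 ± 0.13, adjusted p = 0.411). Ptgs2 measured 433 and 395 CPM against 358 and 212 CPM (0.52 ± 0.26, adjusted p = 0.248). The Ptgs2 groups did not overlap, but the 2 Unc93b1 3d/3d control libraries differed from each other by more than the WT ones did. The Ptgs2 log2 fold change was 0.96 without Unc93b1 3d/3d control replicate 1 and 0.18 without Unc93b1 3d/3d control replicate 2, so its size rested on 1 library. Ptges measured 25.1 and 26.3 CPM in WT control, inside the 21.7 to 35.7 CPM of Unc93b1 3d/3d control.

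In the leukotriene branch, Alox5 measured 10.4 and 3.82 CPM in WT control and 9.66 and 14.9 CPM in Unc93b1 3d/3d control (log2 fold change -0.80 ± 0.50, adjusted p = 0.328). The groups overlapped because of WT control replicate 1. Without that replicate the Alox5 log2 fold change was -1.69, and without WT control replicate 2 it was -0.25. Ltc4s measured 0.633 and 0.776 CPM against 2.01 and 0.964 CPM (-1.08 ± 0.57, adjusted p = 0.217). Alox5ap measured 163 to 185 CPM in WT control and 170 to 197 CPM in Unc93b1 3d/3d control. Lta4h was 74.6 and 66.5 CPM against 65.8 and 56.5 CPM. Alox15 and Hpgd overlapped between the genotypes, and Alox15 differed 4.22-fold between its highest and lowest library, at 5.38 CPM in WT control replicate 1 and 1.27 CPM in WT control replicate 2.

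Of 49 other genes of the pathway in 6 lists by role, 46 were listed in the tables and 32 were tested in this comparison. There were 7 called, 4 higher and 3 lower in WT, where 13.0% of all tested genes were called and 6.40% as lower in WT. The median log2 fold change was 0.04 over the tested list and 0.00 over all genes. Fpr2, a receptor for lipoxin A4 and formyl peptides, measured 108 and 118 CPM in WT control and 18.0 and 15.3 CPM in Unc93b1 3d/3d control (log2 fold change 2.75, adjusted p = 2.85e-06). That 6.73-fold difference was the largest of the pathway genes called here. Ptger4, a receptor for prostaglandin E2, was 76.8 and 82.2 CPM against 45.6 and 45.4 CPM (0.79, adjusted p = 0.00105). Higher in WT were also Akr1b3, a reductase that can make prostaglandin F (0.70), and Abcc4, an exporter of prostaglandins (0.63). Lower in WT were Dpep2, which converts leukotriene D4 to E4 (-1.01), Ptgir, the prostacyclin receptor (-0.64), and Cysltr1, a receptor for cysteinyl leukotrienes (-0.50). None of the phospholipases and lipases was called, although Pla2g4a, the cytosolic phospholipase that supplies both branches, had a log2 fold change of 0.31 with an adjusted p of 0.0435.

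The second comparison asked what αMARCO changed in WT TAMs. Ptgs1 and Ptges fell, 2.70-fold and 2.03-fold, so a cyclooxygenase and the inducible prostaglandin E2 synthase were both lower, while Ptgs2, the more abundant cyclooxygenase, was not called. These were the 2 members called of 10, both lower. Among 15630 tested genes 20.7% were called in either direction and 11.8% as lower. The member count is therefore near the background share, and the measurements of the 2 genes themselves are what is reported. The median log2 fold change was -0.25 over the members and -0.01 over all genes.

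Ptgs1 measured 26.4 and 23.5 CPM in WT control and 9.32 and 9.12 CPM in WT αMARCO. Replicates were close within both groups, and the drop was far larger than their spread (log2 fold change -1.43 ± 0.13, adjusted p = 0.000140). Ptges measured 25.1 and 26.3 CPM in WT control and 13.1 and 12.3 CPM in WT αMARCO (-1.02 ± 0.12, adjusted p = 0.000444). Leaving out any of the 4 libraries kept both calls, with log2 fold changes of -1.52 to -1.36 for Ptgs1 and -1.07 to -0.96 for Ptges. In 1 model of all 8 libraries, where the discordant Unc93b1 3d/3d αMARCO pair enters the estimate of the spread, Ptgs1 was called (adjusted p = 0.0405) and Ptges was not (adjusted p = 0.132).

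Markers of other cell types moved with this comparison. Of the 6 fibroblast and endothelium markers, 4 were lower without overlap in WT αMARCO TAMs. The list summed to 302 and 282 CPM in WT control and 143 and 132 CPM in WT αMARCO. Most of that sum was Pecam1, at 203 and 199 CPM in WT control and 107 and 107 CPM in WT αMARCO. Pecam1 was 28.9 and 24.1 CPM in Unc93b1 3d/3d control. There Cdh5, the other endothelial marker, was 12.7 and 8.11 CPM, against 9.07 and 6.65 CPM in WT control. Spn, a nonclassical monocyte marker, was 133 and 165 CPM in WT control and 20.5 and 21.1 CPM in Unc93b1 3d/3d control. In WT αMARCO Spn was 53.1 and 62.2 CPM. Of that monocyte list 3 of 6 were lower without overlap in WT αMARCO and 1 was higher. The part of endothelium in the Pecam1 fall was not tested. Col3a1, a collagen gene of fibroblasts, went from 71.1 and 63.8 CPM to 21.7 and 13.5 CPM, while Col1a1 and Col1a2, the other collagens listed, stayed at or under 1.57 CPM in these 4 libraries. Epithelial markers summed to 106 and 50.1 CPM in WT control and 30.7 and 32.5 CPM in WT αMARCO, with 4 of 5 lower without overlap. Almost all of that sum was Krt8 and Cdh1, and Krt19 was at or under 0.11 CPM. Epcam and Krt18, among those lower, were at or under 1.42 and 0.665 CPM in these 4 libraries and rest on few reads. Conventional dendritic cell markers (7 of 7 lower) summed to 627 and 330 CPM against 61.2 and 73.8 CPM. T cell markers (6 of 6 lower) summed to 63.3 and 71.7 CPM against 6.96 and 10.2 CPM. Of the 7 neutrophil markers 6 were lower without overlap and Csf3r was higher, so that the sum went from 339 and 316 CPM to 375 and 385 CPM. Ly6g, Retnlg and Cxcr2, among those lower, were at or under 2.43 CPM in these 4 libraries. The sort gate asked for CD45, which fibroblasts, endothelium and tumor cells lack, and against Gr-1, which neutrophils carry. The part of these other cell types in the fall of Ptgs1 and Ptges was not tested.

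Ptgs2 measured 433 and 395 CPM in WT control and 433 and 465 CPM in WT αMARCO (log2 fold change 0.12 ± 0.09, adjusted p = 0.316). The groups overlapped in this gene, unlike in Ptgs1. Hpgds measured 117 and 150 CPM and then 159 and 180 CPM (0.35 ± 0.12, adjusted p = 0.0532), the opposite direction to Ptges. Without WT control replicate 2, the log2 fold changes of Hpgds and Alox15 were 0.53 and -1.77. Without WT control replicate 1 they were 0.17 and 0.30, so both depended on which control library was kept. Hpgd stayed at 1.88 to 4.01 CPM, with overlapping groups.

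Lta4h was lower with αMARCO by less than the fold required for a call. It measured 74.6 and 66.5 CPM in WT control and 52.7 and 58.4 CPM in WT αMARCO (log2 fold change -0.34 ± 0.09, adjusted p = 0.0157). The groups did not overlap. Alox5ap measured 185 and 163 CPM and then 153 and 159 CPM (-0.16 ± 0.08, adjusted p = 0.170). Alox5 (9.81 and 7.48 CPM with αMARCO) lay within the range of WT control. Its log2 fold change was 1.17 without WT control replicate 1 and -0.28 without WT control replicate 2. Ltc4s (1.45 and 0.705 CPM) and Alox15 (1.84 and 1.33 CPM) also overlapped with WT control. The leukotriene branch therefore held no called member here with all 4 libraries.

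**Figure D2:**
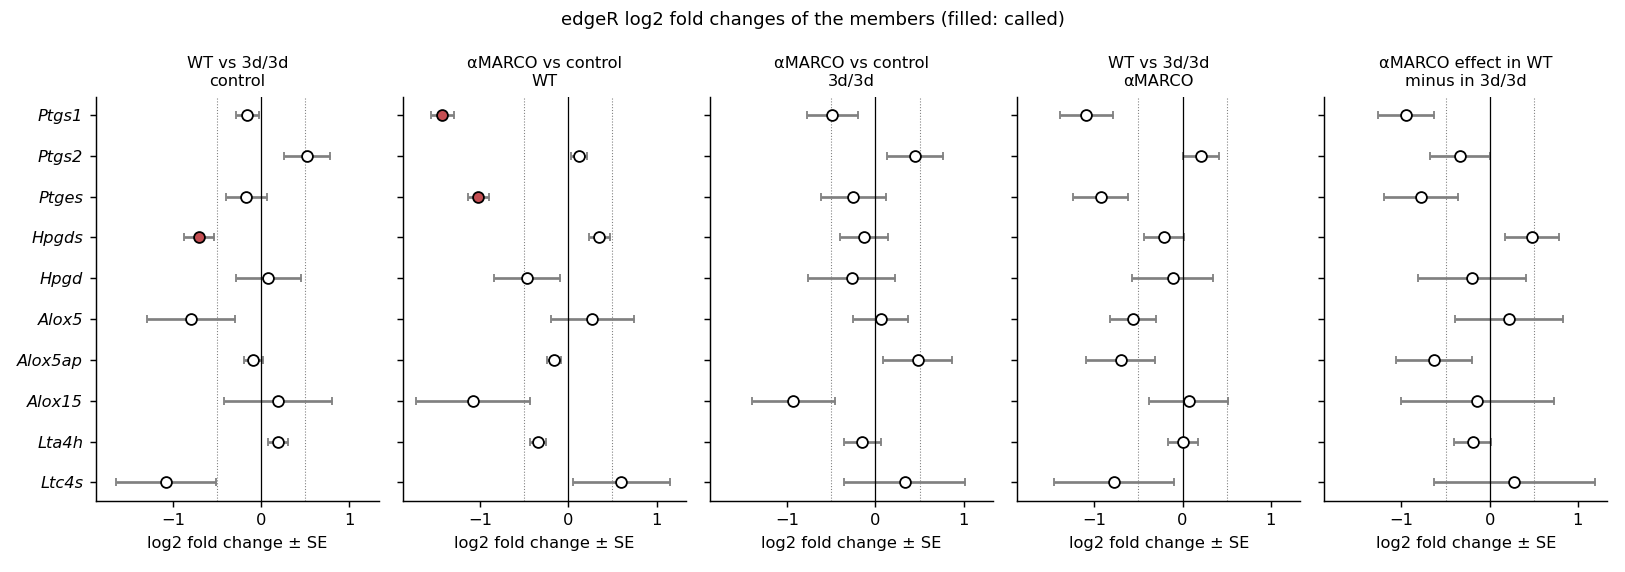
edgeR log2 fold change ± SE of each member in the 4 comparisons and in the difference of the αMARCO effects between genotypes; dotted lines mark ±0.5, and filled points passed the call. The only filled points are Hpgds between control genotypes (-0.71) and Ptgs1 (-1.43) and Ptges (-1.02) for αMARCO in WT.

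Over the wider pathway, αMARCO in WT TAMs was accompanied by 11 calls among 34 tested genes, 4 higher and 7 lower. Of all tested genes, 20.7% were called in either direction and 11.8% as lower. The median log2 fold change of the tested list was -0.06. Dpep2 rose from 17.5 and 13.6 CPM to 40.1 and 40.4 CPM (log2 fold change 1.37, adjusted p = 0.000134). Ptger1, a receptor for prostaglandin E2, rose from 4.53 and 4.99 CPM to 10.3 and 9.51 CPM (1.06, adjusted p = 0.00305). Akr1c18, which can reduce prostaglandins and progesterone, was called as higher at 1.01 and 1.53 CPM, but WT control had 0.158 and 0 CPM, at or under 3 counts, so no fold is given.

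Lower were Mgst3 (-0.88) and Mgst2 (-0.88), membrane glutathione transferases able to conjugate leukotriene A4. Pla2g12a, a secreted phospholipase, fell from 11.9 and 10.6 CPM to 5.99 and 6.22 CPM (-0.88, adjusted p = 0.00498). Akr1b3 fell from 108 and 120 CPM to 65.3 and 71.1 CPM (-0.74, adjusted p = 0.000331), and Fpr2 from 108 and 118 CPM to 73.2 and 70.6 CPM (-0.65, adjusted p = 0.000507). The 3 remaining calls, outside the rule for named genes, were Pla2g6, a calcium-independent phospholipase (0.60), Ptges2, a second prostaglandin E2 synthase (-0.58), and Cbr1, a carbonyl reductase (-0.54). Leaving out either WT αMARCO library lowered the calls both in this list and over all genes. Of the 7 tested prostanoid synthases and reductases outside the members, 3 fell and 1 rose, while none of the 5 tested genes of transport and breakdown was called. In 1 model of all 8 libraries none of the 34 was called, where the share of all genes called was 0.987%.

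**Figure D3:**
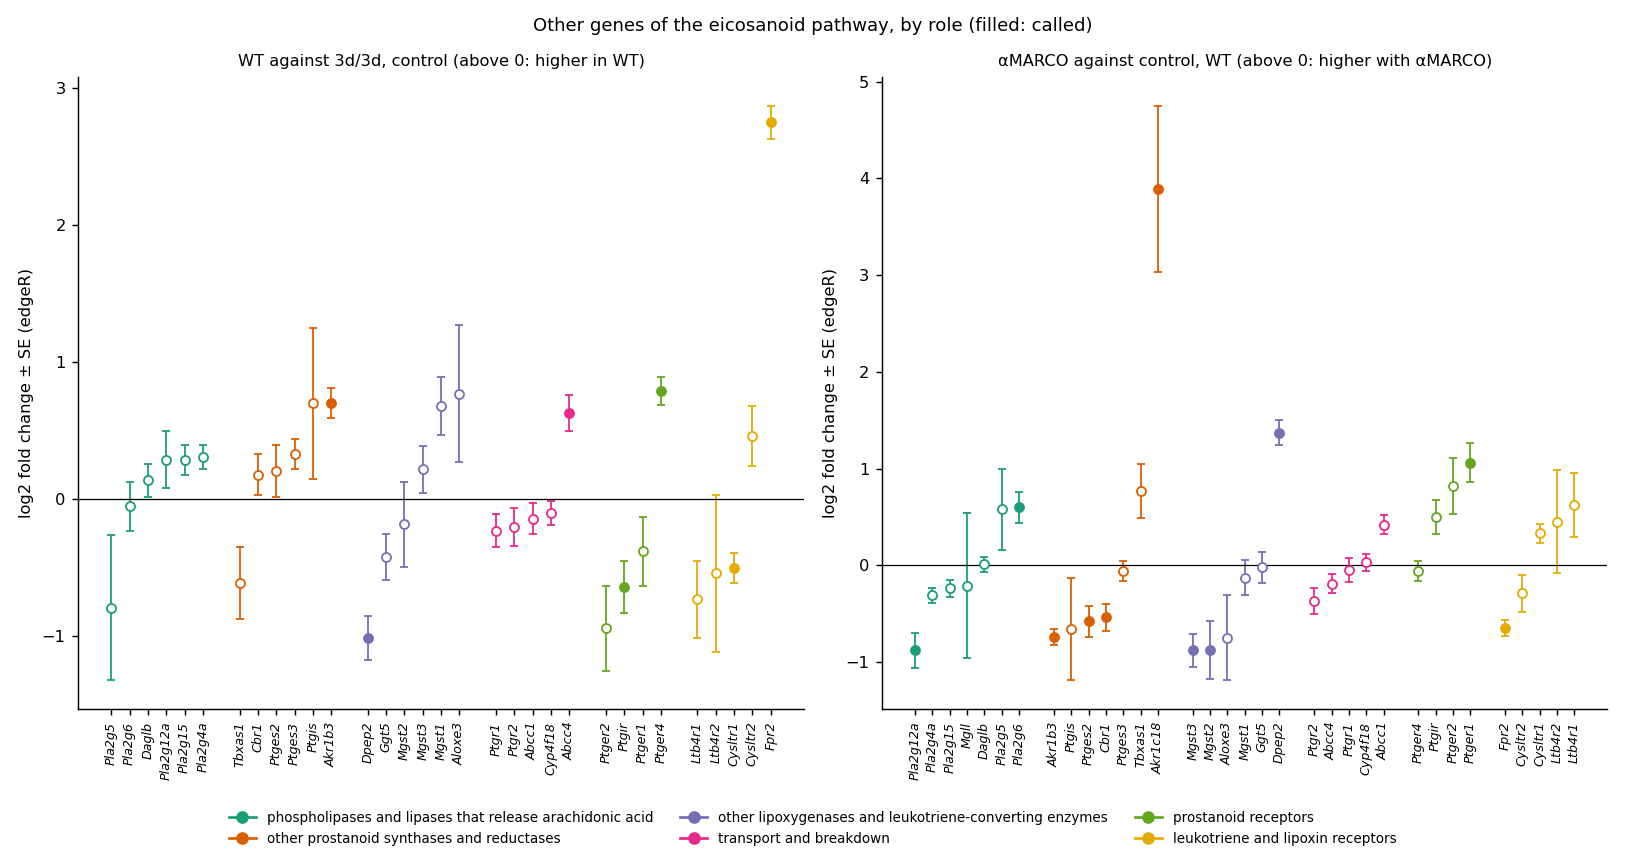
edgeR log2 fold change ± SE of the other tested pathway genes, grouped by role (color), between control genotypes on the left and for αMARCO in WT on the right; the axes differ, and filled points passed the call. Fpr2 at 2.75 stands above the other genes on the left; on the right Akr1c18, nearly absent in WT control, and Dpep2 at 1.37 are highest.

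The third comparison asked what αMARCO changed in Unc93b1 3d/3d TAMs. No member was called, and neither was any of 15428 tested genes (0%) by edgeR. At an unadjusted p under 0.05, 4.82% of genes and 0 members passed, and DESeq2 called 0.378% of the genes it gave an adjusted p and 0 members.

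Ptgs1 measured 26.8 and 28.2 CPM in Unc93b1 3d/3d control and 23.7 and 15.1 CPM with αMARCO (log2 fold change -0.49 ± 0.29, adjusted p = 0.823). Both treated libraries were below both controls, and replicate 2 was the lower one. Ptges measured 35.7 and 21.7 CPM and then 29.7 and 18.1 CPM (-0.25 ± 0.37, adjusted p = 0.872), with groups that overlapped. Ptgs2 measured 358 and 212 CPM and then 355 and 418 CPM (0.45 ± 0.32, adjusted p = 0.823). Hpgds was 222 and 168 CPM with αMARCO and overlapped with its control.

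Alox5ap showed the discordance of the 2 libraries most clearly among the abundant members. It measured 170 and 197 CPM in Unc93b1 3d/3d control, 158 CPM in αMARCO replicate 1 and 347 CPM in αMARCO replicate 2. Alox15 measured 2.51 and 3.25 CPM and then 1.42 and 1.57 CPM (-0.93 ± 0.47, adjusted p = 0.823). Alox5, Ltc4s and Hpgd overlapped with their controls. Lta4h did not overlap, at 65.8 and 56.5 CPM and then 52.7 and 56.4 CPM. Without αMARCO replicate 1, 34.1% of genes and 2 members were called, Ptgs1 at -0.86 and Alox5ap at 0.93. Without αMARCO replicate 2, 3.41% of genes and no member were called. A lone library is assumed there to vary like the other group.

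None of the 32 tested pathway genes was called in Unc93b1 3d/3d TAMs. At an unadjusted p under 0.05 were 5 of them and 4.82% of all tested genes. Leaving out either αMARCO library added calls both in this list and over all genes. Fpr2 measured 18.0 and 15.3 CPM in Unc93b1 3d/3d control and 23.6 and 29.5 CPM with αMARCO. Ptger4 measured 45.6 and 45.4 CPM and then 72.5 and 77.5 CPM. Neither gene overlapped between the groups, and their adjusted p was 0.823 in both.

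The fourth comparison set the 2 αMARCO-treated genotypes side by side. No member was called, nor any of 15722 genes (0%) by edgeR. At an unadjusted p under 0.05, 6.84% of genes and 2 members passed, and DESeq2 called 1.13% of genes and 0 members. The 2 members were again Ptgs1 and Ptges. Ptgs1 measured 9.32 and 9.12 CPM in WT αMARCO and 23.7 and 15.1 CPM in Unc93b1 3d/3d αMARCO, 2.13-fold lower in WT (log2 fold change -1.09 ± 0.30, adjusted p = 0.582). Ptges measured 13.1 and 12.3 CPM against 29.7 and 18.1 CPM (-0.93 ± 0.31, adjusted p = 0.695). Neither gene overlapped between the groups. Alox5 did not overlap either, at 9.81 and 7.48 CPM against 12.7 and 12.6 CPM (-0.56 ± 0.26, adjusted p = 0.709). Ptgs2 was 433 and 465 CPM against 355 and 418 CPM, also without overlap.

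The remaining members overlapped between the treated genotypes, and Alox5ap, at 153 and 159 CPM in WT, lay close to 1 Unc93b1 3d/3d library and far under the other. Without Unc93b1 3d/3d αMARCO replicate 2, 7.45% of genes and 2 members were called, Ptgs1 at -1.39 and Ptges at -1.26. Without replicate 1, 38.6% of genes and 5 members were called, all lower in WT: Ptgs1 at -0.71, Ptges at -0.50, Alox5 at -0.54, Alox5ap at -1.15 and Ltc4s at -1.32. Ptgs1 and Ptges were thus called with either of the discordant libraries left out, and not with both kept. Of 33 tested pathway genes 0 were called with all libraries, 15 without replicate 1 and 7 without replicate 2. With all libraries 10 passed an unadjusted p under 0.05, as did 6.84% of all tested genes. Among those 10 was Fpr2, at 73.2 and 70.6 CPM against 23.6 and 29.5 CPM (adjusted p = 0.230).

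**Figure D4:**
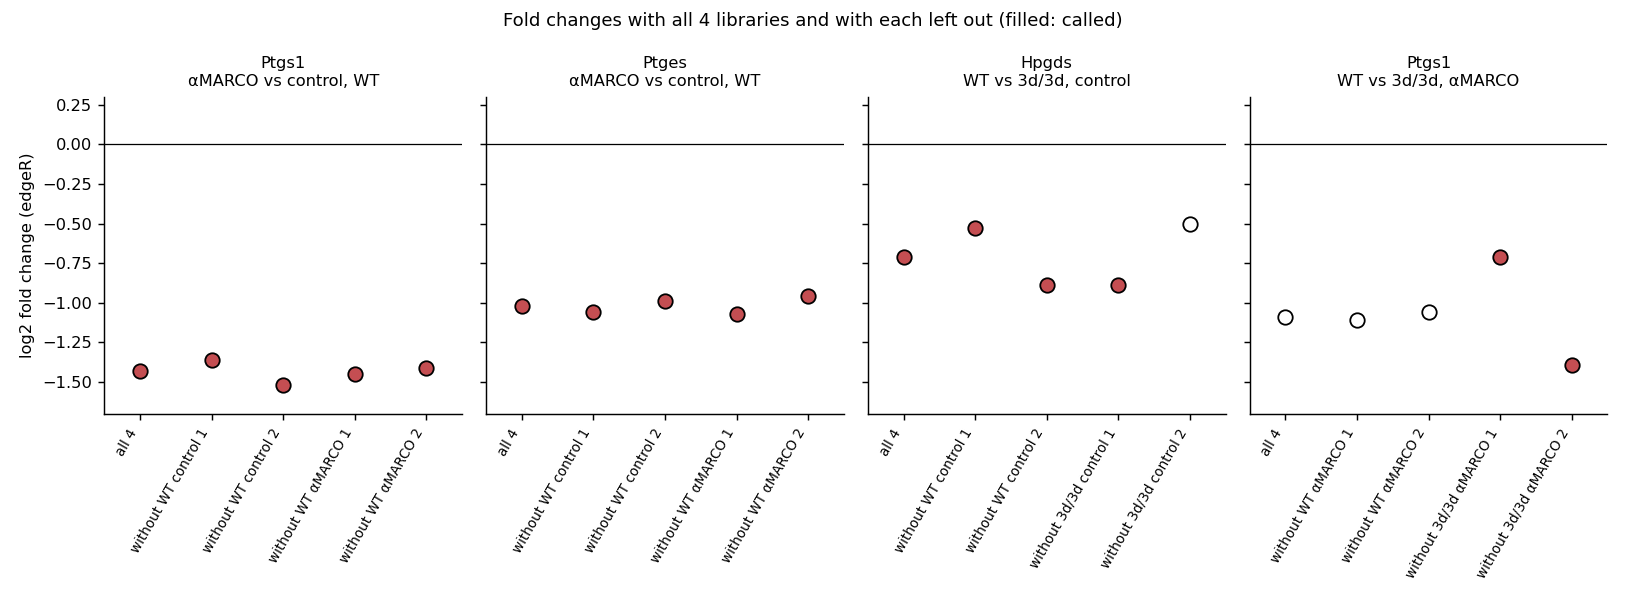
edgeR log2 fold change of Ptgs1 and Ptges for αMARCO in WT, Hpgds between control genotypes and Ptgs1 between αMARCO-treated genotypes, with all 4 libraries and with each library left out; filled points passed the call. Ptgs1 and Ptges in WT are filled throughout, Hpgds is open without Unc93b1 3d/3d control 2 (-0.50), and Ptgs1 between treated genotypes is filled only when either Unc93b1 3d/3d αMARCO library is left out (-0.71 and -1.39).

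Whether the αMARCO effect differed between the genotypes was tested as an interaction in a model of all 8 libraries. No member and none of 16620 genes (0%) was called by edgeR. At an unadjusted p under 0.05, 15.3% of genes and 1 member passed, and DESeq2 called 1.44% of genes and 0 members. Ptgs1 was the member, with a log2 effect lower by 0.95 ± 0.32 in WT than in Unc93b1 3d/3d TAMs (interaction -0.95, adjusted p = 0.318). For Ptges the interaction was -0.78 ± 0.42 (adjusted p = 0.368), and for Alox5ap -0.63 ± 0.43 (adjusted p = 0.450). The fall of Ptgs1 and Ptges in WT TAMs was therefore not shown to differ from the response in Unc93b1 3d/3d TAMs with all libraries. Without Unc93b1 3d/3d αMARCO replicate 1, 36.4% of genes were called, with Ptgs1 at -0.57 and Alox5ap at -1.08 among them. Without replicate 2, 3.45% of genes were called, with Ptgs1 at -1.26 as the 1 member. None of 34 tested pathway genes was called in the interaction with all libraries, and 14 passed an unadjusted p under 0.05. There were 18 calls without Unc93b1 3d/3d αMARCO replicate 1 and 2 without replicate 2, and DESeq2 called 1, Fpr2.

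Ptgs1 and Ptges had like patterns over the 8 libraries, with a Pearson r of 0.91 of log2 CPM. The 8 libraries fall into 4 groups, so this and the following values describe the pattern and carry no test. Nearest to Ptgs1 were Ndrg4 (r = 0.986), F2r, a thrombin receptor (0.983), and Col18a1, a basement membrane collagen (0.980). Nearest to Ptges were Sparc, a matrix protein (0.976), Serpinh1, a collagen chaperone (0.970), and Ltbp4, a matrix protein that binds latent TGF-β (0.960). Col18a1 measured 31.6 and 23.0 CPM in WT control, 42.2 and 33.8 CPM in Unc93b1 3d/3d control, 7.44 and 5.21 CPM in WT αMARCO, and 29.7 and 11.7 CPM in Unc93b1 3d/3d αMARCO. Sparc measured 29.5 and 25.7, 35.3 and 21.3, 10.9 and 11.8, and 27.9 and 15.1 CPM in the same order of groups. These genes, like Ptgs1 and Ptges, were lowest in both WT αMARCO libraries and lower in Unc93b1 3d/3d αMARCO replicate 2 than in replicate 1. Of the listed fibroblast markers, Col3a1 and Pdgfra shared both features, while Col1a1 and Col1a2 were lowest in Unc93b1 3d/3d libraries. Pdgfra stood at 16.5 and 11.6 CPM in WT control, 28.9 and 24.7 CPM in Unc93b1 3d/3d control, 8.16 and 4.03 CPM in WT αMARCO and 28.2 and 12.9 CPM in Unc93b1 3d/3d αMARCO.

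**Figure D5:**
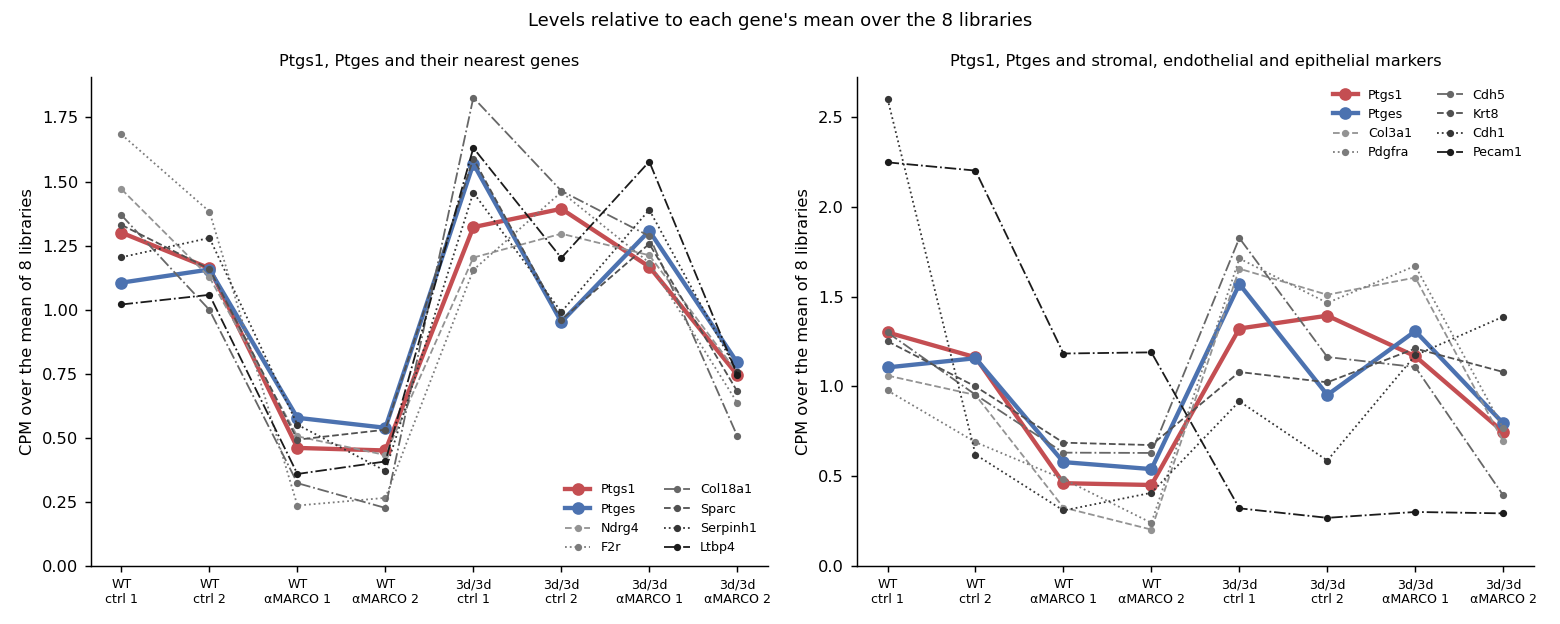
CPM of each gene divided by its own mean over the 8 libraries, by library. Ptgs1 and Ptges (thick lines) are drawn with their 3 nearest genes each on the left. On the right they are drawn with a selection of stromal, endothelial and epithelial markers (Col3a1, Pdgfra, Cdh5, Krt8, Cdh1 and Pecam1). Col1a1, Col1a2, Epcam, Krt18 and Krt19 of the same lists are not drawn. Ptgs1, Ptges and their nearest genes are lowest in the 2 WT αMARCO libraries, with Col18a1 at 7.44 and 5.21 CPM; Pecam1 is high in WT control and low in all 4 Unc93b1 3d/3d libraries, unlike Ptgs1.

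Nearest to Hpgds were Cdkl3 (r = 0.976), Nim1k (0.961) and Arsg (0.960), which stood at 0.580 to 4.31 CPM and rest on few reads. Hpgds had a Pearson r of 0.12 with Ptgs1 and 0.08 with Ptges. The lowest Hpgds values were those of the WT control libraries, and the highest was that of Unc93b1 3d/3d control replicate 2. Ptgs2 and Hpgds had an r of -0.71, and Ptgs2 and Ptgs1 an r of -0.58.

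Some members share their locus with other annotated genes. Gm19719, antisense to Alox5ap, had 99 to 369 counts in a library against 2711 to 5079 for Alox5ap, and Gm26542, antisense to Ltc4s, had 2 to 31 against 12 to 39. Gm17147, a processed pseudogene inside Hpgds, had 28 to 268 counts against 2214 to 4990. The strand setting of the counting is not given in the sources used here, so reads from such pairs may be counted to either gene. For Ltc4s the counts of the partner reached the range of the gene, and its values are uncertain for that reason.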

How the data were processed

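Poly-A RNA of 8 TAM libraries was sequenced on an Illumina instrument. Per the labels and the submitters' processing notes, the authors trimmed reads with fastp, aligned them to GRCm38 with HISAT2 2.0.5, counted them per gene with featureCounts 1.5.0 and ran DESeq2 1.40.2. The deposited tables hold raw counts per gene, a signal column of counts that the authors divided by size factors, FPKM, and the authors' own fold changes and p-values for 3 comparisons; only the counts were used. The 3 tables were joined by gene identifier, and their 95230 shared counts differed in 0 cases. A gene missing from a table was set to 0.

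Counts were tested with edgeR 4.0.16 (R 4.3.3; TMM, filterByExpr, robust quasi-likelihood) on the 4 libraries of each comparison, and on all 8 for the interaction. The calling rule (adjusted p up to 0.05, log2 fold change of 0.5 or more either way) follows the study. The SE was derived from the fold change and the F statistic. Neighbours of a gene were ranked by Pearson's r of log2 CPM (prior count 2). DESeq2 1.42.0 was an alternative. A count of 3 corresponds to 0.114 to 0.198 CPM, which covers counting error only. Nothing states that the libraries came from separate mice for αMARCO, so p-values measure the spread between these samples.

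All 10 members were named in every comparison, and at most 8 called pathway genes in order of absolute log2 fold change. Where Pla2g4a, Ptger4 or Fpr2 is given without a call, it was named after its values were seen. Members and lists were chosen with earlier results of these data known.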

Additional observations from a re-analysis of the deposited data

Results flagged for a closer look

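In 4 of the 34 pathway genes tested in the interaction, both αMARCO libraries lay on opposite sides of their controls in the 2 genotypes. The share of all genes with such moves was not counted, so the number 4 is not read as a result. Each was looked at again by its interaction test, and none passed edgeR's adjustment over 16620 genes with all libraries. Fpr2 fell in WT TAMs and lay above its control in Unc93b1 3d/3d TAMs (interaction log2 fold change -1.34 ± 0.23, edgeR, adjusted p = 0.281). Pla2g4a, the cytosolic phospholipase, went the same way, from 78.2 and 75.2 CPM to 59.3 and 64.3 CPM in WT and from 59.7 and 62.2 CPM to 67.4 and 82.0 CPM in Unc93b1 3d/3d TAMs (-0.62 ± 0.20, adjusted p = 0.318). Ptgir, the prostacyclin receptor, went the other way, from 7.64 and 7.15 CPM to 9.61 and 11.3 CPM in WT and from 11.5 and 11.3 CPM to 8.75 and 6.29 CPM in Unc93b1 3d/3d TAMs (1.07 ± 0.33, adjusted p = 0.318). Abcc1, an exporter of leukotriene C4, measured 130 and 157 CPM and then 197 and 187 CPM in WT, against 152 and 161 CPM and then 140 and 85.3 CPM in Unc93b1 3d/3d TAMs (0.87 ± 0.33, adjusted p = 0.318). These tests rest on the discordant Unc93b1 3d/3d αMARCO pair. Without its replicate 1 all 4 genes were called, Fpr2 at -1.48, Pla2g4a at -0.74, Ptgir at 1.35 and Abcc1 at 1.30. Without its replicate 2 Fpr2 was called at -1.20 (adjusted p = 0.00164), and Pla2g4a at -0.50, Ptgir at 0.84 and Abcc1 at 0.54 were not (adjusted p = 0.0675, 0.126 and 0.0804). Fpr2 was also called by DESeq2 (-1.31, adjusted p = 0.00683) and with no filter on low counts (-1.33, adjusted p = 0.0114), and the other 3 were not. No member showed such opposite moves. Groups of 2 libraries are too small for a test of single outlying samples.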

How the results depend on the processing

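Leaving out the filter on low counts raised the calls between control genotypes. Called then were 3 members (Hpgds, Alox5 and Ptgs2) and 11 pathway genes, with 10.5% of all genes called. It gave 1 pathway call for αMARCO in Unc93b1 3d/3d TAMs (0.700% of all genes) and 1 between treated genotypes (0.415%). In 1 model of all 8 libraries, 0 members and 2 pathway genes were called between control genotypes (2.19% of all genes). For αMARCO in WT 1 member and 0 pathway genes were called (0.987%), and between treated genotypes 1 pathway gene (0.650%). DESeq2 called 1 pathway gene between treated genotypes (1.13% of all genes). With a log2 fold change of 1 or more required, 0 members and 2 pathway genes were called between control genotypes and 3 pathway genes for αMARCO in WT. The share of all genes called at that threshold was not counted. Replicate numbers did not pair the samples: the correlation of same-numbered deviations was 0.01, 0.00, 0.11 and 0.14 in the 4 comparisons. With the replicate block, 2 members (Hpgds and Ptgs2) were called between control genotypes (15.4% of all genes) and 1 pathway gene between treated genotypes (0.617%), no other member's call changed, and Alox15 changed sign between control genotypes (-0.06) and in the interaction (0.01). Of the members' 290 fold changes under 6 settings with all libraries, 282 kept their direction and side of the threshold.

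With 1 library left out, member calls ranged from 0 to 2 between control genotypes, from 2 to 4 for αMARCO in WT, from 0 to 2 in Unc93b1 3d/3d TAMs, from 0 to 5 between treated genotypes and from 0 to 2 in the interaction. Pathway calls ranged from 5 to 9, 7 to 14, 0 to 12 and 0 to 15 in the 4 comparisons. The share of all genes called also moved with the library left out, most of all without an Unc93b1 3d/3d αMARCO library, as given above. These ranges are therefore not read as a property of the members or pathway genes. Whether their calls moved more than those of all genes was not tested. The lone library is assumed to vary like the others. Some uncalled fold changes changed sign. Between control genotypes the range was -0.50 to 0.24 for Ptges, -0.45 to 0.47 for Hpgd, -0.19 to 0.01 for Alox5ap and -1.18 to 0.89 for Alox15. For αMARCO in WT it was -0.86 to 0.06 for Hpgd, -0.28 to 1.17 for Alox5, -1.77 to 0.30 for Alox15 and -0.00 to 1.05 for Ltc4s. For αMARCO in Unc93b1 3d/3d TAMs it was -0.66 to 0.16 for Ptges, -0.35 to 0.09 for Hpgds, -0.70 to 0.08 for Hpgd, -0.22 to 0.41 for Alox5, -0.19 to 0.93 for Alox5ap and -0.44 to 0.95 for Ltc4s. Between treated genotypes it was -0.42 to 0.02 for Hpgds, -0.44 to 0.32 for Hpgd, -0.19 to 0.30 for Alox15 and -0.05 to 0.08 for Lta4h. In the interaction it was -0.59 to 0.33 for Hpgd, -0.33 to 1.12 for Alox5, -1.08 to 0.01 for Alox5ap, -0.83 to 1.24 for Alox15 and -0.37 to 1.02 for Ltc4s. The cause of these changes was not tested.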
